A study of Mus musculus with 8 samples.

Results

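A group of 8 genes that encode transcription factors of the mouse oocyte was followed in whole ovaries of postnatal day (PND) 4: *Figla*, *Nobox*, *Sohlh1*, *Sohlh2*, *Lhx8*, *Taf4b*, *Tbpl2* and *Obox1*. They were listed by name, with no threshold on their values but with earlier results of these data known, and found in the count table by their NCBI gene identifiers. All 8 were among the 24823 genes of the table, and 7 of them were among the 15257 genes with enough reads to be tested. *Obox1* was the exception, with 17 reads over 8 libraries.

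The study compared ovaries in which nuclear receptor NR5A2 (liver receptor homolog 1, LRH-1) was to be removed from granulosa cells with ovaries of littermates, in 4 RNA libraries per genotype. Mice labelled cKO carried *Nr5a2* f/f and *Amhr2*-cre Tg/+, and mice labelled CON carried the same floxed *Nr5a2* alleles without the Cre allele. All were females of the C57BL/6 background. The *Amhr2* promoter drives Cre in pre-granulosa and granulosa cells and in the surface epithelium, and excision removes exons 4 and 5 of *Nr5a2*. The oocyte, where the genes described here are mainly transcribed, is not among the targets of this Cre. Libraries are numbered 1 to 4 within a label as in the count table, and nothing in the labels ties a number to a litter or a batch.

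A follicle forms when an oocyte is enclosed by flattened pre-granulosa cells, and it leaves the dormant primordial pool when the oocyte grows and the granulosa cells become cuboidal. A small network of germ cell transcription factors runs the oocyte side of both steps. FIGLA, SOHLH1 and SOHLH2 are basic helix-loop-helix proteins that bind E-box motifs, NOBOX and LHX8 are homeodomain proteins, and TAF4B and TBPL2 belong to the general transcription machinery in the forms used in gonads and oocytes. In mice, loss of *Sohlh1*, *Sohlh2*, *Lhx8* or *Nobox* blocks the growth of follicles and loss of *Figla* prevents primordial follicles from forming.

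Because helix-loop-helix members act through E-boxes and several members are known to control one another, the 250 bases before an annotated transcription start were read from RefSeq (GRCm38.p6) for the members with a window there (7 of 8). For *Figla* (chr6:86016941-86017190) and *Nobox* (chr6:43309555-43309804) the window lies inside the gene span given further on. These windows thus precede a start within the gene and not its outermost start. The other windows adjoin the gene span. The windows of 4 members are shown, since they span the range from no E-box to 5 of them. Capitals mark every E-box, CANNTG, a motif that reads the same on both strands.
Sohlh1, chr2:25847249-25847498, minus strand: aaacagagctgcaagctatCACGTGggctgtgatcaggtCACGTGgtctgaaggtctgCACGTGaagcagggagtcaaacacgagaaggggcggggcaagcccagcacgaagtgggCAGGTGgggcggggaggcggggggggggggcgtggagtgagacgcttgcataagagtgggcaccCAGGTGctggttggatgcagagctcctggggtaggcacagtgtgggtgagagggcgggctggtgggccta
Tbpl2, chr2:24096596-24096845, minus strand: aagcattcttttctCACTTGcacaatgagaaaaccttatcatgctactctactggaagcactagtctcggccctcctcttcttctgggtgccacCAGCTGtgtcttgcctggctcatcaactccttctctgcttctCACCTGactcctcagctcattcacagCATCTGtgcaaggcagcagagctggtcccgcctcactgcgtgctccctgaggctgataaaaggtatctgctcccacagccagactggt
Sohlh2, chr3:55181794-55182043, plus strand: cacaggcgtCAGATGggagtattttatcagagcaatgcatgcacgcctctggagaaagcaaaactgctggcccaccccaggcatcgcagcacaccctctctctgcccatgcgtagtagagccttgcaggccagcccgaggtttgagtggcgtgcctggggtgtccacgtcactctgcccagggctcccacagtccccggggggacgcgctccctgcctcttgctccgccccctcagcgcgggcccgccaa
Lhx8, chr3:154330561-154330810, minus strand: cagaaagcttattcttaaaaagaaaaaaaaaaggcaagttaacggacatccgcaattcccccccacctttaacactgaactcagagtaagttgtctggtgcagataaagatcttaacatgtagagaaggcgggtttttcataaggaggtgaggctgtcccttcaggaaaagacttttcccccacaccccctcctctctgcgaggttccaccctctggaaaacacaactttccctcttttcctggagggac

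The *Sohlh1* window held 5 E-boxes, the *Tbpl2* window 4, those of *Figla*, *Nobox* and *Obox1* 2 each, and that of *Sohlh2* 1, while no match was found in the *Lhx8* window. Of 32851 windows of the same length in the table, 66.2% held at least 1 E-box, 31.8% at least 2 and 12.2% at least 3. In the *Sohlh1* window 3 of the 5 matches were CACGTG, lying 225, 205 and 186 bases before the start, and the other 2 were CAGGTG. At least 1 CACGTG was present in 6.02% of all windows, and 3 or more in 0.0609%, which is 20 windows. No match to the NOBOX element (TAATTG or TAATTA, in 11.3% of windows), to TGATTG, the LHX8 element (12.7%), or to CAAGGTCA, the element of the NR5A receptors (1.33%), was found in the windows of these 7 members on either strand. A match is a stretch of letters and was not shown here to be bound.

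*Nr5a2* itself had 18.5, 16.3, 15 and 12.2 CPM (counts scaled to library size) in the libraries labelled CON 1 to 4 and 31.0, 23.1, 27.9 and 27.8 CPM in those labelled cKO 1 to 4. Its whole-gene count was thus higher in every library labelled cKO, against the direction of a knockout (0.82 ± 0.13 SE on the log2 scale, adjusted p of 0.0128 in edgeR). The paper reports lower *Nr5a2* mRNA in cKO ovaries by qPCR, with a primer in an excised exon. It also reports no detectable *Nr5a2* signal by in situ hybridization, at a later day, and less NR5A2 protein signal by immunofluorescence. The whole-gene count used here includes exons outside the excised ones, so it does not measure their loss and does not check the labels. *Amhr2*, the gene whose promoter drives Cre, was lower in every library labelled cKO, at 81.9 to 112 CPM in CON against 48.7 to 79.9 CPM (−0.59 ± 0.16 SE on the log2 scale, adjusted p of 0.0539 in edgeR and 0.00394 in DESeq2). Directions given here follow the labels as deposited. Libraries held 14649243 to 29066847 assigned reads. Immediate-early genes, which are induced within minutes of stress or stimulation, ranged in sum from 331 to 431 CPM under the CON label, and reached 2180, 708, 385 and 509 CPM in those labelled cKO 1 to 4. Smooth muscle markers summed to 2080 to 3010 CPM and to 556, 849, 1700 and 2280 CPM in the same order. Red blood cell markers stood at 132 CPM in CON 1 and 77.3 CPM in CON 3, against 9.08 to 19.7 CPM in the other 6 libraries. The summed granulosa markers ranged from 625 to 759 CPM in CON, and in cKO from 657 to 813 CPM. Markers of the oocyte were detected in every library, and 12 of them summed to 341 to 567 CPM in CON, and in cKO to 563 to 808 CPM.

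All 7 tested members had a higher mean in the libraries labelled cKO, by 1.31 to 1.67 fold, and their median log2 fold change was 0.56, where the median of all tested genes was 0. None of the 7 passed an adjusted p of 0.05 in edgeR's quasi-likelihood test, which 6.92% of all tested genes passed in either direction, and none passed it together with a fold of 1.5 (0.891% of genes, higher in cKO). At an unadjusted p under 0.05, 6 of the 7 were higher, against 15.5% of all genes. With DESeq2, 4 of the 7 had an adjusted p under 0.05 (*Nobox*, *Sohlh1*, *Sohlh2* and *Lhx8*), against 7.69% of genes higher in cKO. In 2 of the 7, *Sohlh1* and *Sohlh2*, every library labelled cKO lay above every library labelled CON, against 8.93% of all genes. Leaving out CON 1 brought 5 of the 7 past the edgeR adjusted p and leaving out cKO 4 brought 1 (*Nobox*), while the share of all genes higher in cKO, 3.64% with all 8 libraries, became 6.68% and 4.19%, and without CON 2 or CON 3 no gene of the whole table passed. In whole-ovary RNA, more oocytes and more RNA of a gene per oocyte cannot be told apart.

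**Figure D1:**
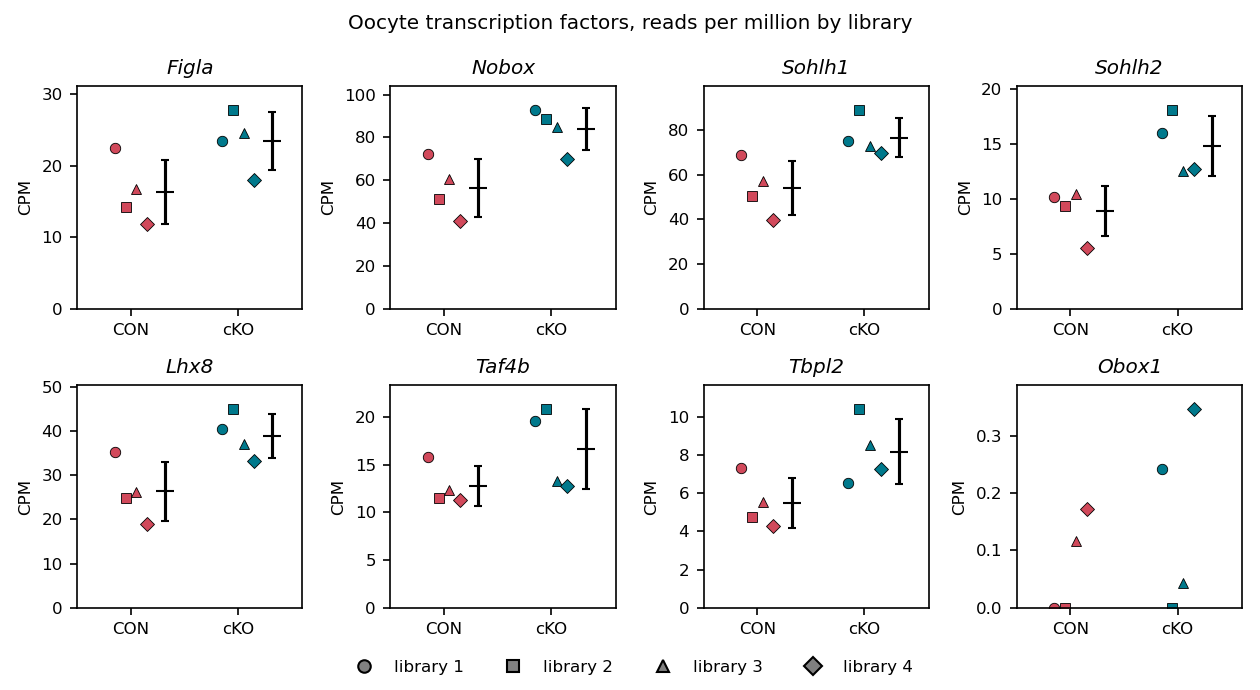
Counts scaled to library size (CPM, vertical axis from 0) of the 8 oocyte transcription factor genes in the libraries labelled CON and cKO, with 1 symbol per library and the mean ± SD at the right of each group (no mean for *Obox1*). CON 1 lies at or above the lowest cKO library in 5 of the 7 tested genes, and *Obox1* stays under 0.4 CPM.

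The germ cell helix-loop-helix factors are described first. *Figla* (NCBI 26910, GRCm38 chr6:86016494-86020996, plus strand) encodes the factor needed for zona pellucida genes. It had 22.4, 14.2, 16.8 and 11.9 CPM in CON 1 to 4 and 23.5, 27.8, 24.5 and 18.0 CPM in cKO 1 to 4. CON 1 exceeded cKO 4, and the other values were ordered by label. Its mean was 16.3 ± 4.54 CPM in CON and 23.5 ± 4.05 CPM in cKO (SD, n = 4 each). The change was 0.53 ± 0.19 (SE) on the log2 scale, with an adjusted p of 0.113 in edgeR and 0.0518 in DESeq2. The paper reports more *Figla* mRNA in cKO ovaries by qPCR.

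*Sohlh1* (NCBI 227631, chr2:25842995-25847248, minus strand) is required in mouse oocytes for *Lhx8* and *Nobox* expression. It had 68.7, 50.6, 57.3 and 39.9 CPM in the libraries labelled CON and 75.1, 89.0, 72.7 and 69.7 CPM in those labelled cKO. The groups did not overlap, but CON 1 came within 1.0 CPM of cKO 4. Means were 54.1 ± 12.1 and 76.6 ± 8.52 CPM, a change of 0.50 ± 0.15 (SE) on the log2 scale with an adjusted p of 0.0698 in edgeR and 0.0129 in DESeq2.

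*Sohlh2* (NCBI 74434, chr3:55182044-55209957, plus strand), whose protein dimerizes with SOHLH1, had the highest fold change of the members. Its levels were 10.2, 9.39, 10.4 and 5.50 CPM in CON and 16.0, 18.1, 12.5 and 12.7 CPM in cKO, with no overlap between labels. On the log2 scale the change was 0.74 ± 0.20 (SE), with an adjusted p of 0.0557 in edgeR and 0.00754 in DESeq2, from 8.87 ± 2.29 to 14.8 ± 2.74 CPM. With 96 to 399 reads per library, counting alone gave a coefficient of variation of 5.01 to 10.2%.

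Of the homeodomain factors, *Nobox* (NCBI 18291, chr6:43303674-43310072, minus strand) activates oocyte growth factor genes such as *Gdf9*. It was read most deeply, with 717 to 2312 reads per library and a counting variation of 2.08 to 3.73%. CON 1 to 4 had 72.4, 51.4, 60.7 and 41.1 CPM, and cKO 1 to 4 had 92.9, 88.4, 84.9 and 70 CPM. The labels overlapped only where CON 1 stood above cKO 4. The mean went from 56.4 ± 13.3 to 84.0 ± 9.94 CPM, a change of 0.58 ± 0.16 (SE) on the log2 scale with an adjusted p of 0.0598 in edgeR and 0.00584 in DESeq2.

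*Lhx8* (NCBI 16875, chr3:154306288-154330560, minus strand), a LIM homeodomain factor, had the same order of libraries within CON as *Nobox*. *Figla*, *Sohlh1*, *Taf4b* and *Tbpl2* had this order too. The values of *Lhx8* were 35.1, 24.9, 26.2 and 19.0 CPM in CON and 40.4, 44.9, 37.1 and 33.1 CPM in cKO, with CON 1 again above cKO 4. On the log2 scale the change was 0.56 ± 0.17 (SE), with an adjusted p of 0.0696 in edgeR and 0.0133 in DESeq2, with means of 26.3 ± 6.65 and 38.9 ± 4.99 CPM.

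Of the general factors, *Tbpl2* (NCBI 227606, chr2:24071366-24096595, minus strand) encodes the relative of the TATA-binding protein that takes its place in growing oocytes. It had 7.32, 4.78, 5.55 and 4.30 CPM in CON and 6.51, 10.4, 8.51 and 7.26 CPM in cKO. CON 1 lay above both cKO 1 and cKO 4. On the log2 scale the change was 0.57 ± 0.20 (SE), with an adjusted p of 0.0954 in edgeR and 0.0519 in DESeq2, from 5.49 ± 1.33 to 8.17 ± 1.70 CPM.

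*Taf4b* (NCBI 72504, chr18:14783201-14960424, plus strand), which encodes a TFIID subunit enriched in gonads, had the lowest fold change of the members and was the one with an unadjusted p above 0.05. Its values were 15.8, 11.5, 12.3 and 11.3 CPM in CON and 19.6, 20.8, 13.3 and 12.8 CPM in cKO. cKO 1 and cKO 2 stood apart at the top, while cKO 3 and cKO 4 lay within the range of CON. On the log2 scale the change was 0.39 ± 0.18 (SE), with an adjusted p of 0.192 in edgeR and 0.164 in DESeq2, from 12.7 ± 2.08 to 16.6 ± 4.18 CPM. The 2 high libraries were also those with the highest immediate-early genes, whose part in this was not tested, and without them the log2 fold change of *Taf4b* was 0.03. A processed pseudogene is annotated on the same strand within *Taf4b*, so reads could be divided between them.

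*Obox1* (NCBI 71468, chr7:15547257-15556846, plus strand), of a family of oocyte-specific homeobox genes, had 0, 0, 2 and 3 reads in CON and 6, 0, 1 and 5 reads in cKO. A count of 0 allows up to 3 reads, which is 0.106 to 0.207 CPM depending on the library. The totals of 5 and 12 reads are too few for a fold change. The gene overlaps *Obox2*, *Obox3* and several *Obox4* pseudogenes with near-identical copies, so the assignment of these reads is uncertain. Other *Obox* genes were also scarce, with *Obox2* and *Obox5* the highest at up to 0.125 and 1.29 CPM, and *Obox3* and *Obox6* at 0 reads in every library.

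When each level was divided by exon length, so that genes can be compared, *Sohlh1* was the most abundant member in CON at 42.0 ± 9.35 CPM per kb. *Nobox* followed at 28.0 ± 6.62, *Figla* at 19.5 ± 5.43 and *Lhx8* at 10.4 ± 2.63 CPM per kb. *Tbpl2* at 3.98 ± 0.961, *Sohlh2* at 3.75 ± 0.969, *Taf4b* at 2.47 ± 0.403 and *Obox1* at 0.038 ± 0.0454 CPM per kb closed the order. In CON the ranges of neighbours overlapped for *Sohlh1* with *Nobox*, *Nobox* with *Figla*, *Tbpl2* with *Sohlh2* and *Sohlh2* with *Taf4b*, and not elsewhere. In cKO the order was the same except that *Sohlh2* (6.28 ± 1.16 CPM per kb) stood before *Tbpl2* (5.93 ± 1.24), and these were the only neighbours whose ranges overlapped.

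The members varied together within a label. CON 1 was the highest CON library in 6 of the 7 tested members and CON 4 the lowest in all 7. The SD of the log2 ratio between 2 members over the 8 libraries was lowest for *Sohlh1* with *Lhx8*, at 0.07, and was 0.09 for *Nobox* with *Lhx8* and for *Figla* with *Lhx8*. It was highest, 0.32, for *Sohlh2* with *Taf4b*. The difference between labels in that last ratio was 0.38, with an exact permutation p of 0.0857 (two-sided), the lowest of the 21 pairs before any adjustment, where 0.0286 is the smallest p that 4 against 4 libraries allow.

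The question of how the members compare with the oocyte as a whole was put to 12 genes of the oocyte that are not members, named here the oocyte markers. They include *Ddx4*, an RNA helicase of germ cells, *Dazl*, an RNA-binding protein, and *Tdrd1* and *Tdrd5* of the piRNA pathway. All 12 had a positive log2 fold change, with a median of 0.59, and 4 rose at an edgeR adjusted p under 0.05: *Ddx4* (0.62, adjusted p = 0.0326), *Tdrd1* (0.75, 0.0403), *Tdrd5* (0.67, 0.0403) and *Dazl* (0.74, 0.0432). DESeq2 called 10 of them, and edgeR called 10 without CON 1 and none when any single library other than CON 1 and cKO 4 was left out. The share of all genes called higher by edgeR, 3.64% with all libraries, moved in the same runs. It was 6.68% without CON 1, 0 without CON 2 or CON 3 and 0.228% without CON 4. Without cKO 1 to 4 in turn it was 2.51%, 0.605%, 0.528% and 4.19%. *Dnd1* had the lowest value of the 12, 0.11 (SE 0.24). Their mean deviation followed that of the members library by library, at 0.10, −0.38, −0.28 and −0.59 on the log2 scale in CON 1 to 4 and 0.37, 0.58, 0.15 and 0.04 in cKO 1 to 4. The members stood at 0.10, −0.35, −0.19 and −0.66, and at 0.32, 0.53, 0.21 and 0.04.

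**Figure D2:**
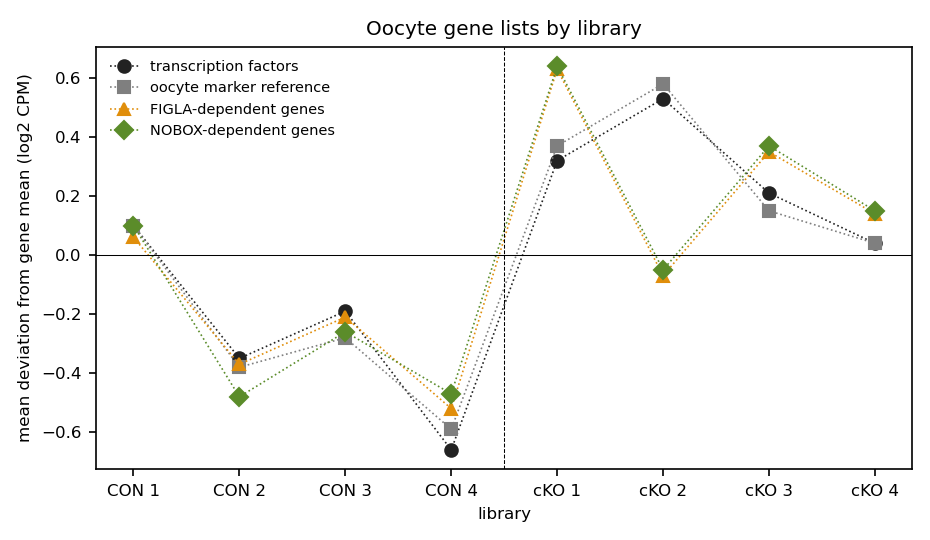
Mean deviation of log2 CPM from each gene's mean over 8 libraries (vertical axis) by library, for the 7 tested transcription factors, the 12 oocyte markers and the FIGLA- and NOBOX-dependent genes. The transcription factors and the oocyte markers lie close together in every library, and in cKO 2 the dependent genes fall to −0.07 and −0.05 while the transcription factors stand at 0.53.

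Expressed as a log2 ratio to the geometric mean of the 12 oocyte markers, the members differed between labels by −0.22 to 0.19. The difference, cKO minus CON, was −0.03 for *Figla* (exact permutation p = 0.771), 0.02 for *Nobox* (p = 0.886), −0.06 for *Sohlh1* (p = 0.429), 0.19 for *Sohlh2* (p = 0.371), 0.01 for *Lhx8* (p = 0.914) and 0.00 for *Tbpl2* (p = 1), all two-sided over 70 assignments. *Taf4b* had −0.22, with ratios of −1.12, −1.09, −1.09 and −0.89 in CON and −1.09, −1.20, −1.42 and −1.35 in cKO (exact permutation p = 0.0571), so that only cKO 1 lay within the CON values. None of the 7 differences reached 0.05, and these p-values were not adjusted. *Sohlh2* showed the widest spread in CON, from −1.93 to −1.33, against −1.50 to −1.37 in cKO.

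**Figure D3:**
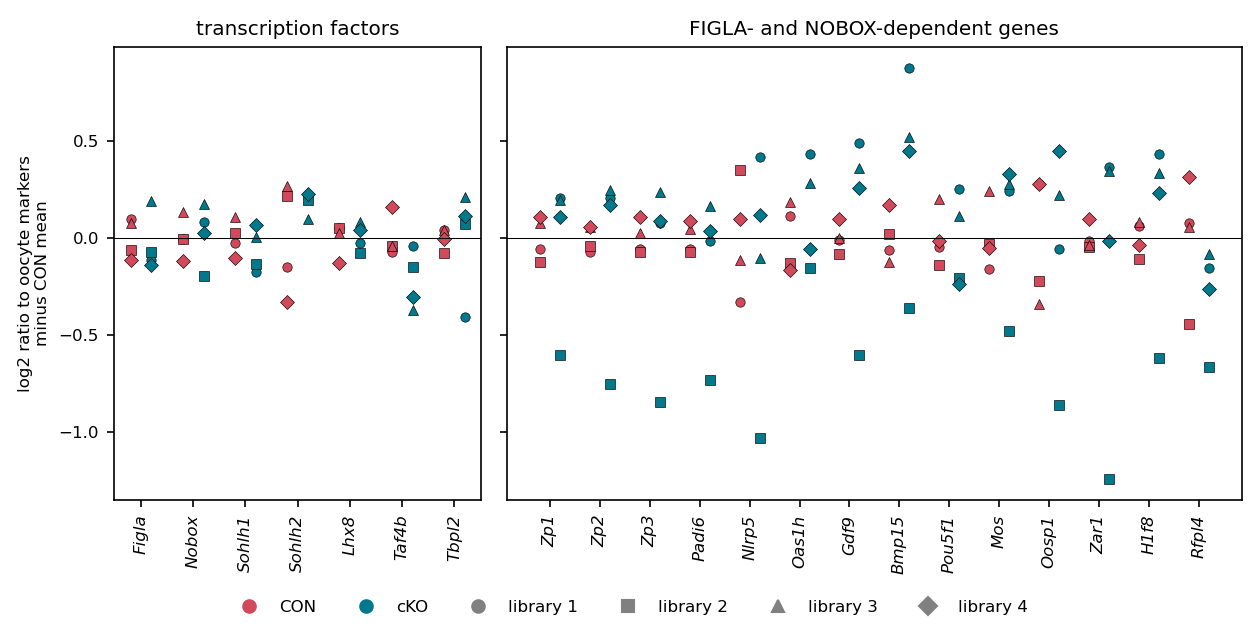
Log2 ratio of each gene's count to the geometric mean of the 12 oocyte markers, minus the mean of the 4 CON libraries (vertical axis), for the transcription factors (left) and the FIGLA- and NOBOX-dependent genes (right), with 1 symbol per library. The transcription factors differ between labels by −0.22 to 0.19, and cKO 2 is the lowest library in 12 of the 14 dependent genes.

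Genes known to depend on FIGLA or NOBOX in mouse oocytes were then set beside the members. The 6 FIGLA-dependent genes, which include the zona pellucida genes *Zp1*, *Zp2* and *Zp3*, all had positive log2 fold changes with a median of 0.52, and none passed the edgeR threshold (5 did so at an unadjusted p, and 5 with DESeq2). The lowest p-values were those of *Zp1* (0.56, adjusted p = 0.0627), *Zp2* (0.56, 0.0724) and *Oas1h* (0.70, 0.0874). Of the 10 NOBOX-dependent genes 8 were tested, all with positive values and a median of 0.62. *Bmp15*, an oocyte growth factor, rose from 1.79 ± 0.304 to 3.59 ± 1.18 CPM (1.01 ± 0.25 SE on the log2 scale, adjusted p of 0.0434 in edgeR) and was the only one to pass, with 5 of the 8 called by DESeq2. It no longer passed when any single library other than CON 1 and cKO 4 was left out, when none of the 8 did, while 4 of the 8 passed without CON 1 and 2 without cKO 4. Without CON 1, 4 of the 6 FIGLA-dependent genes passed as well. The share of all genes called higher moved in the same runs, as given for the oocyte markers. *Fgf8* and *Gpr149* were too low to be tested.

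In cKO 2 most dependent genes stood low relative to the oocyte markers, which themselves had their highest sum there, at 808 CPM. In CPM the summed dependent genes of cKO 2 lay within the range of CON. *Zar1* alone fell below it, at 12.2 CPM in cKO 2 and 13.6 to 20.6 CPM in CON, as did *Fgf8*, too low to be tested. The FIGLA-dependent genes summed to 1430 CPM in cKO 2 and to 1140 to 1640 CPM in CON. The NOBOX-dependent genes summed to 137 CPM in cKO 2 and to 96.3 to 150 CPM in CON. Relative to the oocyte markers, cKO 2 was the lowest of the 8 libraries in 5 of 6 FIGLA-dependent and 7 of 8 NOBOX-dependent genes, but in 1 of the 7 members (*Nobox*). *Zp2* stood at 3.23, 3.26, 3.36 and 3.36 in CON and at 3.51, 2.55, 3.55 and 3.47 in cKO, on the log2 ratio scale. *Zar1*, a maternal factor, stood at −0.77 to −0.63 in CON and at −0.36, −1.97, −0.38 and −0.74 in cKO. The *Figla* ratio in cKO 2 was −0.79, within its CON range of −0.83 to −0.62, and that of *Nobox* was 0.88, where CON had 0.96 to 1.21. Over all 8 libraries the median difference between labels in this ratio was −0.07 for the FIGLA-dependent and 0.04 for the NOBOX-dependent genes. Without cKO 2, a choice made after seeing these values, the medians were 0.15 and 0.26, with 6 of 6 and 7 of 8 genes above 0. *Zp1*, *Zp2*, *Gdf9*, *Bmp15* and *H1f8* were then higher in each of the other 3 cKO libraries than in any CON library. For *Zp1* the margin was small, with CON 4 and cKO 4 both at 1.47 after rounding. The share of all genes separated in this way was not computed, so the separation is not particular to these genes as far as is known here.

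Proteins that work with the members are mostly made by many cell types, and are given for comparison. Of 10 partners and cofactors (E proteins that dimerize with helix-loop-helix factors, LIM-binding proteins, and subunits of TFIIA and TFIID) none passed the edgeR threshold, and their median log2 fold change was −0.02. DESeq2 called none either, and at an unadjusted p 2 were lower, *Ldb2* (−0.30, adjusted p = 0.124) and *Tcf4* (−0.28, 0.134). *Gtf2a1l*, the TFIIA subunit of germ cells, ranged over 1.64 to 2.61 CPM in CON and, in cKO, over 2.28 to 3.05 CPM (log2 scale 0.45 ± 0.21 SE, adjusted p of 0.184 in edgeR).

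**Figure D4:**
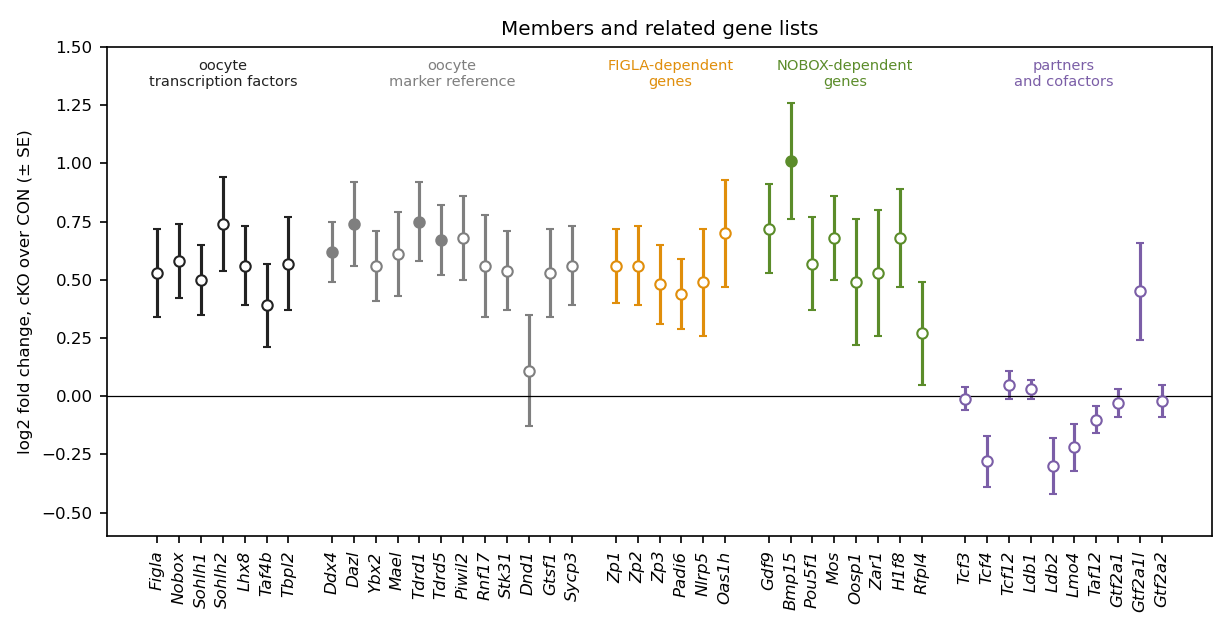
Log2 fold change of cKO over CON with its SE from edgeR (vertical axis) for each tested gene of 5 lists, where filled symbols have an adjusted p under 0.05. The transcription factors lie between 0.39 and 0.74 with no filled symbol, the oocyte markers have 4 filled symbols, and the partners and cofactors lie around 0.

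Among the paralogs of the members, *Taf4*, the widely expressed counterpart of *Taf4b*, ranged from 34.0 to 37.5 CPM in CON and, in cKO, from 39.3 to 42.1 CPM, a change of 0.20 ± 0.05 (SE) on the log2 scale with an adjusted p of 0.0569 in edgeR with no overlap between labels. *Lhx9*, a LIM homeodomain gene also used here as a surface epithelium marker, had 0.69 (SE 0.19, edgeR adjusted p = 0.0599). *Tbpl1*, the relative of *Tbpl2*, had −0.10 (adjusted p = 0.307). None of the 5 paralogs tested passed the edgeR threshold, while 2 had an unadjusted p under 0.05 and 2 were called by DESeq2.

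A list of 8 regulators of transcription or of transcripts known from oocytes was also examined. *Pou5f1* is on this list and among the NOBOX-dependent genes, so its DESeq2 adjusted p of 0.0353 counts in both. *Nr6a1*, the germ cell nuclear factor, had 9.15, 6.05, 6.95 and 6.76 CPM in CON and 13.9, 14.2, 10.5 and 11.2 CPM in cKO. It did not overlap between labels and rose by a change of 0.79 ± 0.15 (SE) on the log2 scale with an adjusted p of 0.0255 in edgeR, the only one of the 8 to pass, while DESeq2 called 6. None of the 8 passed without CON 2, CON 3, CON 4 or cKO 2, and 3 passed without CON 1 and 4 without cKO 4. Here too the share of all genes called higher moved, as given for the oocyte markers. The next were *Zfp36l2*, whose protein destabilizes mRNA (0.30, adjusted p = 0.0543), and *Trp63*, the guardian of oocyte genome integrity (0.59, 0.0614).

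Genes were also ranked by how closely their deviations within a label followed those of the members over the 8 libraries. The 10 closest of 15240 genes were *Stk31* (Pearson r = 0.995), *AU015836* (0.994), *Inppl1* (0.989), *Pdzk1* (0.987), *Fancd2* (0.986), *Phactr3* (0.986), *Arl14epl* (0.985), *Twistnb* (0.984), *Mov10l1* (0.982) and *Trp63* (0.978). These values describe 8 points that share library and depth, and many genes come close with so few points. Of the 10, 3 stayed among the closest 10 when Spearman's rho was used, and 3 to 9 when 1 library was left out. The 14 dependent genes ranged from −0.058 for *Nlrp5* to 0.845 for *Oas1h*, with 0.823 for *Pou5f1*, 0.334 for *Gdf9* and 0.321 for *Zp2*, and the 12 oocyte markers ranged from 0.706 for *Dnd1* to 0.995 for *Stk31*. *Stk31* is also one of the 12 oocyte markers, and *Mov10l1*, a piRNA pathway helicase, had a log2 fold change of 0.75 (edgeR adjusted p = 0.0373).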

How the data were processed

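RNA of whole PND4 ovaries was sequenced by the authors from stranded mRNA libraries, and per the labels the reads were aligned to GRCm38 (mm10) with STAR and counted with featureCounts (versions and strand setting not given in the sources used here). The deposited table holds unnormalized counts for 24823 NCBI gene IDs, of which 99.7% matched a RefSeq symbol. Its columns name a genotype but no single sample title. A second deposited table, with the authors' comparison and per-million values, was not used.

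Counts were fitted in R 4.3.3 with edgeR 4.0.16 (TMM scaling, filterByExpr, robust quasi-likelihood F test), with Benjamini-Hochberg adjustment over all 15257 genes tested. CPM are scaled by TMM (factors 0.978 to 1.03), and standard errors (SE) were obtained by dividing a log2 fold change by √F. No 2 libraries agreed within sampling noise. DESeq2 1.42.0 and limma 3.58.1 (voom, with and without quality weights) were alternatives, beside other scalings and filters and the omission of libraries. The scripts were tested on simulated counts. Ratios to the 12 oocyte markers used log2(count + 0.5) and an exact permutation test. Exon lengths came from GENCODE M21. The study gives 4 animals per genotype for the sequencing, matching the 4 libraries per genotype, and each library was taken as 1 animal. Counting variation covers counting error only.

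All 8 members were named. Of other lists, genes past an adjusted p of 0.05 were named and otherwise up to 3 with the smallest p, together with the 10 genes most like the members. *Dnd1*, *Zar1*, *Gtf2a1l*, *Amhr2*, *Nlrp5*, *Pou5f1*, the relatives of *Obox1* and the genes named for cKO 2 were added after their values were seen. The members and lists were chosen with earlier results of these data known.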

Additional observations from a re-analysis of the deposited data

Results flagged for a closer look

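A library far from the other 3 by Dixon's criterion was looked for in 56 groups of 4 libraries, of which 42 held log2 ratios of a gene to the oocyte markers and 14 the CPM of a member. Chance gives about 1 in 20 in independent groups, but these groups share libraries and the ratios share the oocyte markers. The 6 found therefore cannot be set against that rate. Such a library was found in 6 groups, all of them ratios. In CON these were CON 4 for *Lhx8*, at −0.15, and CON 4 for *Taf4b*, at −0.89. In cKO all were cKO 2, at 0.76 for *Zp1*, 2.55 for *Zp2*, 1.70 for *Zp3* and −3.54 for *Mos*. cKO 2 was also the library with the highest summed level of the 7 tested members and *Obox1*, at 299 CPM, and of the 12 oocyte markers, at 808 CPM, while its immediate-early genes summed to 708 CPM. Whether these facts are related was not tested.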

How the results depend on the processing

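The 7 tested members kept a positive log2 fold change under all 18 alternatives, between 0.03 and 0.97. The number past an adjusted p of 0.05 was 0 in edgeR under 3 other scalings and 2 other filters, 4 with DESeq2, 3 with limma-voom, 6 with limma-voom and quality weights, 1 (*Nobox*) without CON 1 and CON 3, and 0 without cKO 1 and cKO 2. The share of all genes called higher moved as well, from 3.64% to 7.69%, 4.47%, 8.90%, 0.491% and 2.04% in the same order. With a fold of 1.5 added it was 1 with DESeq2, 3 with limma-voom, 2 with quality weights and 1 without CON 1 and CON 3. Members above CON in every cKO library numbered 1 with library size only and 7 without CON 1 and CON 3. Leaving out 1 library gave 0 to 5 members past the adjusted p (5 without CON 1, 1 without cKO 4), 0 to 5 with the fold, and 2 to 7 without overlap. Groups separate more readily when fewer libraries are compared. For the counts with the fold and without overlap, the share of all genes was not computed under these alternatives. These counts therefore do not set the members apart from other genes. Without CON 2 or CON 3 edgeR called 0 of all genes, with 0.0567 and 0.0613 as the smallest adjusted p, so 0 members called there says little about them. Over all alternatives the adjusted p ranged from 0.029 to 0.409 for *Figla*, 0.00584 to 0.296 for *Nobox*, 0.0129 to 0.298 for *Sohlh1*, 0.00754 to 0.218 for *Sohlh2*, 0.0133 to 0.313 for *Lhx8*, 0.106 to 0.918 for *Taf4b* and 0.0236 to 0.228 for *Tbpl2*. In every case the cause was not tested.

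Of the 12 oocyte markers, 4 passed in edgeR, 1 with no count filter, 10 with DESeq2, 7 with limma-voom, 10 with quality weights, 0 without cKO 1 and cKO 2, 2 without CON 1 and CON 3, and 0 to 10 with 1 library left out. The FIGLA-dependent genes past the threshold numbered 5 with DESeq2, 1 with limma-voom, 5 with quality weights and 0 to 4 with 1 library left out. The NOBOX-dependent genes numbered 5, 3 and 4 with these tools, 0 without either pair of libraries and 0 to 4 with 1 left out. Paralogs numbered 2, 1 and 2 with these tools, 1 with library size only and 0 to 2 with 1 left out. The other oocyte regulators numbered 6, 2 and 4 with these tools, 0 without either pair and 0 to 4 with 1 left out. Partners and cofactors stayed at 0 throughout. With 1 library left out the share of all genes called higher moved too, as given with the oocyte markers.

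For the ratio to the oocyte markers, 1 member passed 0.05 with *Ddx4* alone as reference (*Taf4b*, −0.26, exact permutation p = 0.0286) and 0 to 2 did so with 1 library left out (2 without cKO 1, *Taf4b* and *Tbpl2*). *Nobox* changed sign to −0.03 with *Ddx4*, −0.02 without CON 4 and −0.03 without cKO 3, and *Lhx8* to −0.04, −0.03 and −0.02. With 1 library left out they ranged from −0.03 to 0.09 and from −0.03 to 0.04. Without cKO 2 the median of the FIGLA-dependent genes went from −0.07 to 0.15. No paired analysis was possible because the sample titles of CON and cKO share no replicate numbers and the columns of the table carry none that pair them. At this depth *Obox1* could not be tested.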
